A study of Mus musculus with 48 samples.

Results

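Ltf, Ngp, Camp, S100a8, S100a9 and Retnlg are 6 transcripts typical of neutrophils, taken by symbol from a table of read counts for 22354 genes in mouse liver. All 6 were in the table, and all 6 were among the 13646 genes that passed a filter on low counts. They were chosen by values measured in these livers, the KO minus WT differences, all 6 being lower in KO by the fitted mean over times, so that difference is given as a description without a test. Livers came from 23 KO mice, in which Bmal1 (gene symbol Arntl, a core transcription factor of the circadian clock) is deleted in adipocytes, and from 25 WT mice. Every mouse was a C57BL/6J female of 28.75 to 105 weeks, kept for 1 day in constant darkness and fasted for 24 h before its liver was taken. Times of collection were ZT0, ZT4, ZT8, ZT12, ZT16 and ZT20, in hours from lights-on of the earlier cycle, with 4 mice per genotype and time except at ZT16, where 3 were KO and 5 WT. The promoter that drives the deletion and the alleles carried by WT mice are not given in the sources used here.

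Neutrophils are made in the bone marrow, where their granules form in a fixed order. Azurophil granules, with myeloperoxidase and serine proteases, form first, at the promyelocyte stage. Specific granules, with lactoferrin and cathelicidin, form next, at the myelocyte and metamyelocyte stages, and the messenger RNAs of their proteins decline as the cell matures. S100a8 and S100a9 messenger RNAs stay abundant in the mature neutrophils that circulate. A liver homogenate holds the RNA of the blood and immune cells in the organ, and in such bulk RNA fewer cells of a type and less RNA per cell cannot be told apart.

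The stretch of 150 bases before the annotated start of each of the 6 genes is shown first, because the genes varied together from mouse to mouse. The sequences are RefSeq's for build GRCm38.p6 and run 5′ to 3′ on the strand of the gene. Capitals mark every match, on either strand, to TTNCNNAA, a core that fits sites of the C/EBP family, to GAGGAA, a core that fits sites of PU.1, and to TATAAA. Ltf lies at chr9:111019142-111019291 (plus strand), Ngp at chr9:110419658-110419807 (plus), Camp at chr9:109849457-109849606 (minus), S100a8 at chr3:90668921-90669070 (plus), S100a9 at chr3:90695722-90695871 (minus) and Retnlg at chr16:48872458-48872607 (plus).
Ltf: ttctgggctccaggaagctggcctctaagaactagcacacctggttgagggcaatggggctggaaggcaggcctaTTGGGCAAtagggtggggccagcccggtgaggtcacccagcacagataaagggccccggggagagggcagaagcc
Ngp: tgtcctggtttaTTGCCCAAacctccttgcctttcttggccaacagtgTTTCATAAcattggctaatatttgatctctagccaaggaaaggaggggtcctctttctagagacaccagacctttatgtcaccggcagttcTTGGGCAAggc
Camp: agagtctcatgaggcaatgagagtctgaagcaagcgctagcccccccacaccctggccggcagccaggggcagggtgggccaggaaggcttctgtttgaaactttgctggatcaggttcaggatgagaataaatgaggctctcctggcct
S100a8: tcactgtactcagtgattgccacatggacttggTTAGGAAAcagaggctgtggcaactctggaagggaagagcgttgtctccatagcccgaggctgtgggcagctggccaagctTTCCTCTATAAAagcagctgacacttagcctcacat
S100a9: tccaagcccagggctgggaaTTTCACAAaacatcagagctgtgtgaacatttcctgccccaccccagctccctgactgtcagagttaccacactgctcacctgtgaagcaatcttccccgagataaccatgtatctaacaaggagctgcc
Retnlg: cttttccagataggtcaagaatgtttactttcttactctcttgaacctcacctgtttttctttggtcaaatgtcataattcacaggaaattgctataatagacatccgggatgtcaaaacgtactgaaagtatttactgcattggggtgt

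TTNCNNAA was found before 4 of the 6 genes, with 3 copies before Ngp and 1 each before Ltf, S100a8 and S100a9. Of 32851 RefSeq promoters, 22.7% held it in a window of the same length. TATAAA and GAGGAA were found before S100a8 alone, side by side in 1 capital run, and were held by 7.57% and 14.5% of all promoters. The windows of Camp and Retnlg held none of the 3 motifs. These matches describe letters in a short window and were not tested as binding sites.

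In the coordinates of the count table (build mm9), Ltf spans chr9:110921796-110945270, Ngp chr9:110322254-110325514 and Camp chr9:109749889-109751970. These 3 genes of specific granule proteins thus lie within 1.2 Mb of chromosome 9. S100a8 at chr3:90472993-90473956 and S100a9 at chr3:90496554-90499643 are neighbours within 26651 bases of chromosome 3. Retnlg lies at chr16:48872721-48874611. Levels are given as CPM, read counts relative to the size of the library, scaled by TMM, a trimmed mean of ratios between libraries. Without Alb, each library held between 12841969 and 13009797 counts, so 1 read is worth about as much in every mouse.

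Ltf encodes lactoferrin, an iron-binding protein of specific granules, and its messenger RNA was nearly absent from most livers. Its median over the 48 mice was 0.0824 CPM, and it had no read at all in 8 of 23 KO and 7 of 25 WT livers. At ZT20 the 4 KO livers held 51.1, 0.150, 0.232 and 0.768 CPM, against 3.21, 0, 0.161 and 5.88 CPM in the 4 WT livers. The first of these KO mice, KO ZT20 replicate 1, had the highest Ltf level of all 48, and the other KO mice of that time lay within the WT range. At ZT0 the KO livers held 0.0750, 0.152, 0.153 and 0.234 CPM, against 0, 0.0815, 40.9 and 0.504 CPM in WT livers. Here a single WT mouse, replicate 3, stood above all others. At ZT12 the KO livers held 0, 0, 0.0806 and 0.0751 CPM, against 0, 0.0748, 0.0833 and 21.6 CPM in WT livers. At ZT16 none of the 3 KO livers held a read of Ltf, which allows up to 3 counts in each, while the 5 WT livers held 1.21, 0, 12.4, 0 and 0.0791 CPM. Again 1 WT mouse in each of these groups carried nearly all of the signal. At ZT4 the KO livers held 0.156, 0.644, 0 and 0.464 CPM, against 1.23, 1.53, 0.150 and 0.287 CPM in WT livers. At ZT8 no liver of either genotype exceeded 0.149 CPM.

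Ngp, the gene of neutrophilic granule protein, and Camp, the gene of the antimicrobial cathelicidin, were high in the same mice. Ngp at ZT20 was 84.0, 0.150, 0 and 2.07 CPM in KO livers, against 3.29, 0, 0.645 and 9.67 CPM in WT livers. At ZT0 Ngp was 0.0750, 0.380, 0.305 and 0.156 CPM in KO livers, against 0, 0.326, 85.5 and 1.30 CPM in WT livers. The top mouse of each time was thus the one that led for Ltf. At ZT12 Ngp was 0, 0.0833, 0.161 and 0.6 CPM in KO livers, against 0.0819, 0.0748, 0.167 and 33 CPM in WT livers. At ZT16 it was 0.0743, 0 and 0.0816 CPM in KO livers, against 2.09, 0.251, 21.2, 0 and 0.317 CPM in WT livers. No KO liver of these times exceeded 0.6 CPM, while WT ZT12 replicate 4 and WT ZT16 replicate 3 stood alone at the top. At ZT4 Ngp was 0.0780, 2.41, 0 and 0.155 CPM in KO livers, against 1.46, 1.68, 0.150 and 0.789 CPM in WT livers. At ZT8 the highest of the 8 livers was KO replicate 1, with 0.355 CPM from 5 reads. Camp at ZT20 was 32.4, 0, 0 and 0.384 CPM in KO livers, against 1.68, 0, 0 and 3.37 CPM in WT livers. At ZT0 Camp was 0, 0.152, 0 and 0.0780 CPM in KO livers, against 0.0787, 0, 22.5 and 0.360 CPM in WT livers. As for Ltf and Ngp, 1 mouse of each of these times held nearly all of the Camp reads. At ZT12 Camp was 0, 0, 0.0806 and 0.3 CPM in KO livers, against 0, 0, 0.167 and 12.6 CPM in WT livers. At ZT16 it was 0, 0 and 0.0816 CPM in KO livers, against 0.724, 0, 8.13, 0.170 and 0.0791 CPM in WT livers. At ZT4 Camp was 0, 1.53, 0 and 0.155 CPM in KO livers, against 0.537, 0.459, 0.0748 and 0.144 CPM in WT livers. Camp had no read in 14 of 23 KO and 8 of 25 WT livers, and none in any of the 4 KO livers at ZT8.

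S100a8 and S100a9 encode the subunits of calprotectin, a calcium-binding protein of the neutrophil cytosol, and they were read in every liver. S100a9 at ZT20 was 212, 6.09, 3.86 and 4.15 CPM in KO livers, against 11.4, 4.89, 7.90 and 19.9 CPM in WT livers. At ZT0 it was 1.35, 6.01, 3.36 and 7.88 CPM in KO livers, against 2.68, 3.99, 170 and 3.17 CPM in WT livers. Apart from 1 mouse in each of these comparisons, the genotypes shared a range of about one order of magnitude. At ZT4 S100a9 was 1.33, 14.6, 3.62 and 5.10 CPM in KO livers, against 5.52, 4.97, 1.12 and 7.18 CPM in WT livers. At ZT8 it was 7.32, 1.74, 4.25 and 3.53 CPM in KO livers, against 2.98, 3.37, 1.97 and 3.62 CPM in WT livers. The highest liver of either time was KO ZT4 replicate 2. At ZT12 S100a9 was 2.79, 1.75, 0.887 and 5.48 CPM in KO livers, against 1.06, 3.14, 1.33 and 51.5 CPM in WT livers. At ZT16 it was 1.86, 1.22 and 7.10 CPM in KO livers, against 6.75, 1.17, 42.5, 1.70 and 1.03 CPM in WT livers. The highest mouse at both times was WT, and every other WT value lay below the highest KO value of its time.

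S100a8 had the same order of mice at ZT20, with 129, 3.91, 2.32 and 3.07 CPM in KO livers and 7.45, 3.59, 5.32 and 14.3 CPM in WT livers. At ZT0 S100a8 was 0.675, 2.97, 1.98 and 5.31 CPM in KO livers, against 1.65, 2.04, 115 and 1.80 CPM in WT livers. All 4 KO livers of ZT0 lay below the single high WT liver, and the genotypes overlapped. At ZT12 it was 1.21, 1.33, 0.323 and 2.70 CPM in KO livers, against 0.819, 2.10, 0.916 and 33.9 CPM in WT livers. At ZT16 it was 1.26, 0.957 and 3.92 CPM in KO livers, against 4.10, 1.34, 25.8, 1.78 and 1.19 CPM in WT livers. Its range over all mice was 0.323 to 129 CPM in KO livers and 0.299 to 115 CPM in WT livers. Retnlg, the gene of a small secreted protein of the resistin-like family that mouse neutrophils express, was lower. At ZT20 it stood at 29.7, 1.127, 0.772 and 0.384 CPM in KO livers, against 1.83, 1.07, 1.61 and 4.23 CPM in WT livers. At ZT0 it stood at 0.375, 2.36, 0.229 and 1.56 CPM in KO livers, against 0.394, 1.55, 21.0 and 0.360 CPM in WT livers. In both groups of mice 1 liver again led, KO at ZT20 and WT at ZT0. Mean Retnlg was 1.02 CPM in KO and 0.689 CPM in WT livers at ZT4, and 0.887 and 0.581 CPM at ZT8. In the same order it was 0.327 and 1.69 CPM at ZT12, and 0.293 and 1.71 CPM at ZT16. Over all times Retnlg ranged from 0.0833 to 29.7 CPM in KO livers and from 0 to 21.0 CPM in WT livers.

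**Figure D1:**
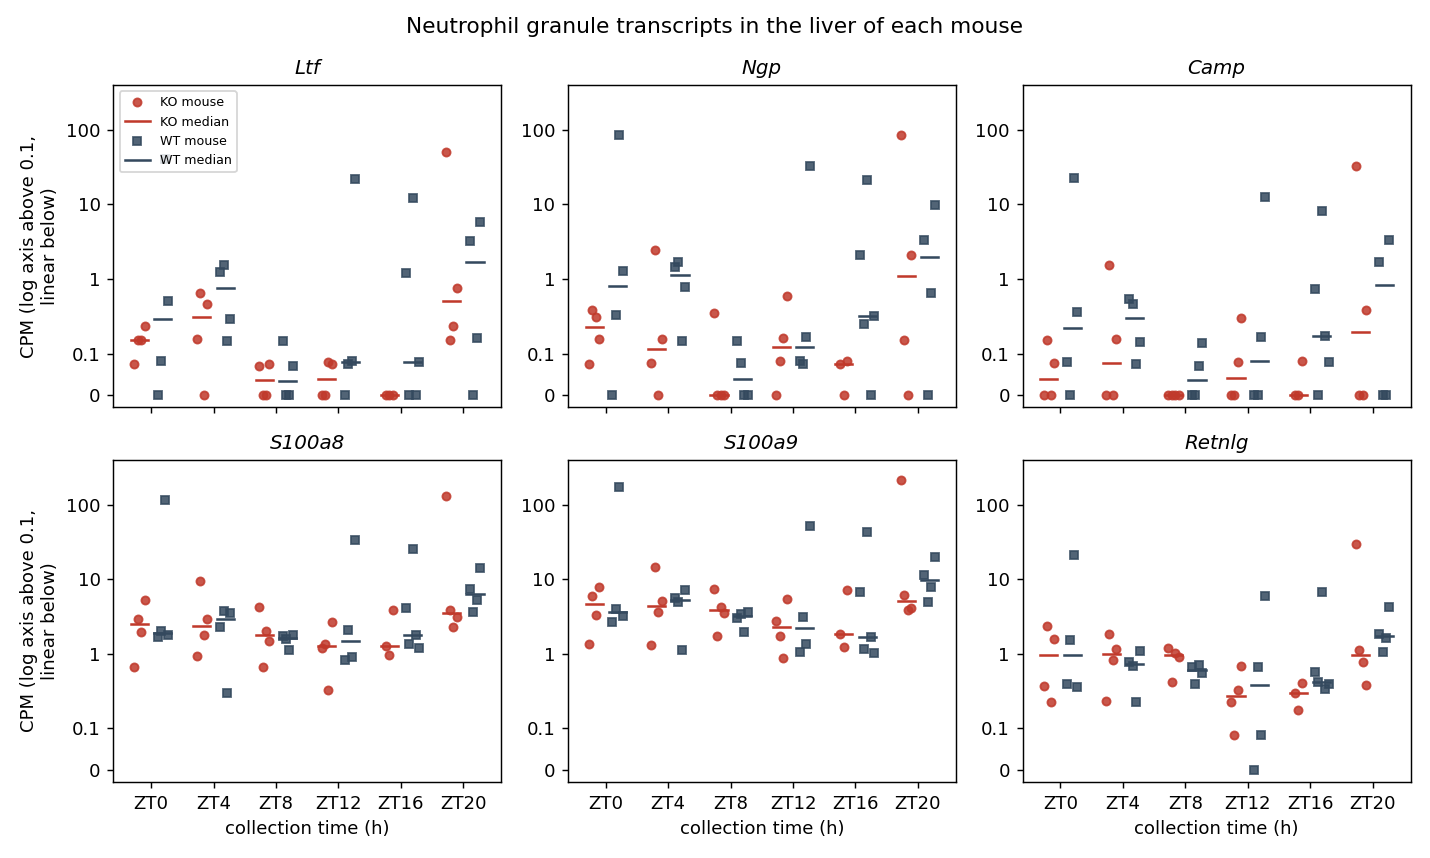
Level of each of the 6 genes (CPM, log axis above 0.1 and linear below) in every mouse by collection time, KO mice as circles left and WT mice as squares right, with a bar at the median of each group. At ZT20 KO replicate 1 stands far above its group in all 6 panels, and at ZT0, ZT12 and ZT16 a single WT mouse does so, while most mice of both genotypes overlap.

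Together, 5 mice, 1 KO and 4 WT, held most of the reads of these genes. They were KO ZT20 replicate 1, WT ZT0 replicate 3, WT ZT12 replicate 4, WT ZT16 replicate 3 and WT ZT20 replicate 4, and all 5 were in the top 5 for each of the 6 genes. They accounted for 91.6% of the summed CPM of Ltf, 92.1% of Ngp, 91.4% of Camp, 75.1% of S100a8, 73.8% of S100a9 and 68.6% of Retnlg over the 48 mice. In these mice, in the order just given, Ltf was 51.1, 40.9, 21.6, 12.4 and 5.88 CPM and Retnlg was 29.7, 21.0, 5.99, 6.84 and 4.23 CPM. The first 2 mice were the same for all 6 genes. The next in line were WT ZT20 replicate 1 and KO ZT4 replicate 2, with 11.4 and 14.6 CPM of S100a9. The 5 high mice were aged 62.5, 69.75, 46, 105 and 28.75 weeks, so they spanned the age range of the study.

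The spread between mice of 1 group placed these genes near the top of the tested genes. The standard deviation of log2 CPM within groups was 2.39 for Ngp, 2.17 for Ltf, 2.05 for Camp, 1.74 for S100a9, 1.70 for S100a8 and 1.5 for Retnlg, against a median of 0.41 over the 13646 tested genes. Ngp, Ltf and Camp were the 3 members among the 10 tested genes of largest spread, and all 6 were among the first 50. The medians of Ltf, Ngp and Camp were 0.0824, 0.155 and 0.0764 CPM over all mice. The filter on low counts thus kept these 3 genes through the few livers with more reads. A large spread follows in part from that, so their ranks are a description. Per kilobase of the longest coding transcript, the mean level was highest for S100a9 at 27 CPM, then S100a8 at 18.2, Ngp at 4.32, Retnlg at 3.47, Camp at 2.38 and Ltf at 1.09 CPM. Those means rest mostly on the 5 mice, and the median level per kilobase was 7.21 CPM for S100a9 but 0.0300 CPM for Ltf.

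The genotype difference is described next, in a comparison that called 1.4% of tested genes, 0.623% higher and 0.777% lower in KO livers. The mean over the 6 times, KO minus WT, was -3.37 (log2, SE 1.64) for Ltf, -2.76 (SE 1.45) for Camp and -2.55 (SE 1.53) for Ngp, the 3 genes of specific granule proteins. It was -0.79 (SE 0.52) for S100a8, -0.69 (SE 0.52) for Retnlg and -0.68 (SE 0.51) for S100a9. These fitted values weigh each time alike on a log scale and are largest for genes with many livers at 0. Each SE of an edgeR estimate, here and below, is the size of the estimate divided by the square root of its F statistic. It is approximate, above all where a group had no read. The plain log2 ratio of mean CPM, KO over WT, was -0.67 for Ltf, -0.79 for Ngp and -0.49 for Camp, and -0.32, -0.12 and -0.19 for S100a8, Retnlg and S100a9. Mean Ltf was 2.37 ± 10.6 CPM in KO livers (SD, n = 23) and 3.58 ± 9.18 CPM in WT livers (SD, n = 25), with medians of 0.0751 CPM in KO and 0.149 CPM in WT livers. Mean S100a9 was 13.4 ± 43.4 CPM in KO livers (SD, n = 23) and 14.6 ± 34.8 CPM in WT livers (SD, n = 25), with medians of 3.86 CPM in KO and 3.62 CPM in WT livers. For S100a9 the median thus stood slightly higher in KO livers. Medians were nearly equal for S100a8, at 2.05 CPM in KO and 2.04 CPM in WT livers, and for Retnlg, at 0.675 and 0.674 CPM. For every member the SD exceeded the mean in both genotypes.

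At each of the 6 times, KO and WT livers overlapped for all 6 genes. Over the tested genes, the share with every KO mouse below every WT mouse was 1.77% for ZT0, 3.98% for ZT4, 0.791% for ZT8, 1.9% for ZT12, 0.594% for ZT16 and 0.476% for ZT20. The share with every KO mouse above was 1.88%, 3.81%, 0.879%, 1.35%, 0.579% and 0.623% in the same order. The KO median was the lower of the 2 at all 6 times for Ngp and Camp, at 5 times for Ltf, at 4 for S100a8 and Retnlg and at 2 for S100a9. By time, the fitted difference of Ltf was -6.00 for ZT0, -1.30 for ZT4, -0.45 for ZT8, -6.80 for ZT12, -8.17 for ZT16 and 2.48 for ZT20. The value at ZT16 sets 3 livers without a read against the WT mice, so it depends on the small count the fit adds and is no bound. The largest gaps fell at the times when 1 WT mouse was high, and the difference was positive at ZT20, when 1 KO mouse was high. S100a9 had differences of -3.28 for ZT0, 0.39 for ZT4, 0.50 for ZT8, -2.37 for ZT12, -1.65 for ZT16 and 2.36 for ZT20.

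Single mice moved these values. Without KO ZT20 replicate 1 the KO minus WT value fell to -4.22 for Ltf, -1.37 for S100a8 and -1.27 for S100a9. Without WT ZT0 replicate 3 it was -0.11 for S100a8, -0.05 for S100a9 and -0.21 for Retnlg, and without WT ZT12 replicate 4 it was -2.30 for Ltf and -1.52 for Ngp. KO mice were also the heavier group, with a median of 24.5 g against 21.7 g in WT mice, and the 5 high mice weighed 19.2 to 24 g. With body weight as a covariate the KO minus WT value was -2.34 for Ltf, -0.14 for S100a8 and -0.08 for S100a9. The part of body weight in the difference was not tested.

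Time of day was not used to choose the genes and was tested over all 13646 genes with edgeR's quasi-likelihood test and Benjamini-Hochberg adjustment. Within KO livers all 6 members passed at an adjusted p under 0.05, against 9.73% of tested genes. Adjusted p was 0.00464 for Ltf, 0.00511 for Ngp, 0.0117 for Camp, 0.0172 for S100a8, 0.0234 for Retnlg and 0.0258 for S100a9. The 6 calls rest on 1 mouse. Without KO ZT20 replicate 1, none of the 6 passed, with adjusted p from 0.724 for Retnlg to 0.961 for S100a9, while 7.1% of tested genes still did. In each of the other 47 fits that left out 1 mouse, all 6 passed.

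Within WT livers 0 of the 6 passed by edgeR's quasi-likelihood test, against 8.55% of tested genes, with adjusted p from 0.0943 for Ngp to 0.229 for Retnlg. At an unadjusted p under 0.05, 4 of the 6 passed, against 24% of tested genes. DESeq2 passed S100a8 alone, with an adjusted p of 0.0405, against 13.6% of tested genes, and all 6 for time in KO livers, against 16.5%. Without WT ZT12 replicate 4, 4 of the 6 passed, Ltf, Ngp, S100a8 and S100a9, with adjusted p of 0.0403, 0.0158, 0.0278 and 0.0467 by the same test. Without WT ZT16 replicate 3, 2 of the 6 passed, Ngp and S100a8, with adjusted p of 0.0335 and 0.0468. The WT group of highest median was ZT20 for all 6 genes, with 1.69 CPM for Ltf, 1.97 for Ngp, 0.840 for Camp, 6.38 for S100a8, 9.65 for S100a9 and 1.72 CPM for Retnlg. In KO livers the median of Ltf was also highest at ZT20, at 0.5 CPM, whereas that of Retnlg was highest at ZT4, at 0.991 CPM.

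A test of whether the KO minus WT difference changed with time passed for 0 of the 6, against 0.00733% of tested genes, with an adjusted p of 0.953 for each by edgeR's quasi-likelihood test. The unadjusted p was under 0.05 for all 6, from 0.0117 for Ngp to 0.0480 for Retnlg, against 3.28% of tested genes. With age as a covariate it was under 0.05 for 0 of the 6 (0.0522 to 0.137 by edgeR), and with same-numbered KO and WT mice as a block for Ltf alone (0.0342, and up to 0.703 for S100a9). DESeq2 passed 0 of the 6 as well, against 0.103% of tested genes. The 6 genes varied together through the same few mice, so counts of them, here and in the other tests, are not separate results. With 1 mouse left out, the largest unadjusted p of this test by edgeR ran from 0.0865 for S100a8 to 0.335 for Ltf. An effect of time past the threshold in KO and not in WT livers is therefore not shown to differ between the genotypes.

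**Figure D2:**
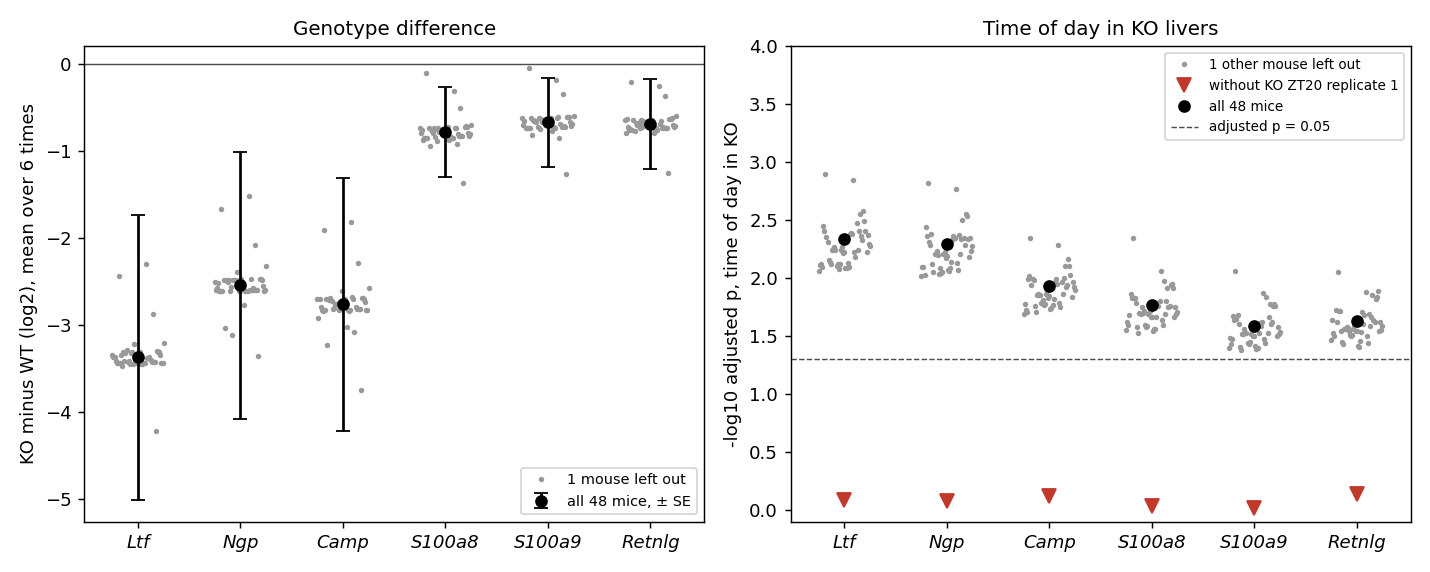
Left, KO minus WT difference (log2, mean over 6 times) of each gene with all 48 mice (black, ± the approximate SE) and with each mouse left out in turn (grey). Right, -log10 of the adjusted p of time of day in KO livers, in which all 6 genes lie above the dashed line at 0.05 unless KO ZT20 replicate 1 is left out (triangles).

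Age differed between mice of a group, and its slope was positive for all 6 genes. Per 10 weeks, log2 levels were higher by 0.98 (SE 0.35) for Ltf, 0.82 (SE 0.32) for Ngp, 0.78 (SE 0.32) for Camp, 0.42 (SE 0.17) for S100a9, 0.37 (SE 0.17) for S100a8 and 0.34 (SE 0.17) for Retnlg. None passed over all genes by edgeR's quasi-likelihood test, with adjusted p from 0.635 for Ltf to 0.823 for Retnlg, against 0.0366% of tested genes. At an unadjusted p under 0.05, 5 of the 6 had a positive slope on age, against 3.23% of tested genes. DESeq2 passed Ltf alone, with an adjusted p of 0.0306, against 0.256% of tested genes; 0.0293% of tested genes were higher with age by edgeR. With 1 mouse left out, the age slope ran from 0.56 to 1.52 for Ltf and from 0.17 to 0.41 for Retnlg. Without regard to group, age had an r of only 0.129 with the mean z-score of the 6 genes over the 48 mice. The 2 oldest mice of ZT16, both of 105 weeks, held 0 CPM of Ltf in KO replicate 3 and 12.4 CPM in WT replicate 3. The slope on body weight was negative for all 6 genes, from -0.81 per g for Camp (SE 0.42) to -0.25 per g for Retnlg (SE 0.17). None passed by edgeR's quasi-likelihood test (adjusted p from 0.768 to 0.842) or by DESeq2, and no tested gene did by edgeR, 0%, against 0.0513% by DESeq2. At an unadjusted p under 0.05, 0 of the 6 had a negative slope on weight by edgeR, against 2.7% of tested genes, with unadjusted p from 0.0585 to 0.160. The count was 4 of 6 by DESeq2 and 2 of 6 by edgeR without the filter on low counts.

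The 6 genes varied together from mouse to mouse. Over the 48 mice and 15 pairs of members, Pearson's r of log2 CPM was 0.793 to 0.979 with a median of 0.871, and Spearman's rho was 0.407 to 0.960 with a median of 0.642. No p is given, since the members were chosen together and the points share their libraries. The closest pair was S100a8 and S100a9, with an r of 0.979, and the loosest was Ngp and Retnlg, with an r of 0.793. Without the 2 mice farthest from the median of the first gene, r was 0.649 to 0.963. It was 0.751 to 0.986 within KO mice and 0.810 to 0.981 within WT mice.

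Among livers with at least 10 reads of both genes, the ratios between members moved less than their levels. Where both had at least 10 reads, S100a9 over S100a8 had a median of 1.68 in 20 KO livers (range 1.27 to 2.35) and 1.53 in 24 WT livers (range 0.867 to 2.4). Camp over Ltf was 0.523 to 0.657 in the 6 livers with enough reads of both, 1 KO and 5 WT. Ltf over S100a8 was 0.250 to 0.639 in the 10 livers with at least 10 reads of both. Retnlg over S100a8 was 0.177 to 0.795 in 22 such livers, and Ngp over S100a8 was 0.224 to 0.973 in 13. The cutoff leaves out low ratios. KO ZT4 replicate 2 held 8 reads of Ltf and 116 of S100a8, and KO ZT8 replicate 1 held 1 and 60. These ratios cover only livers in which both genes were well read, and in the livers where Ltf was at 0, S100a9 was still read in each.

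**Figure D3:**
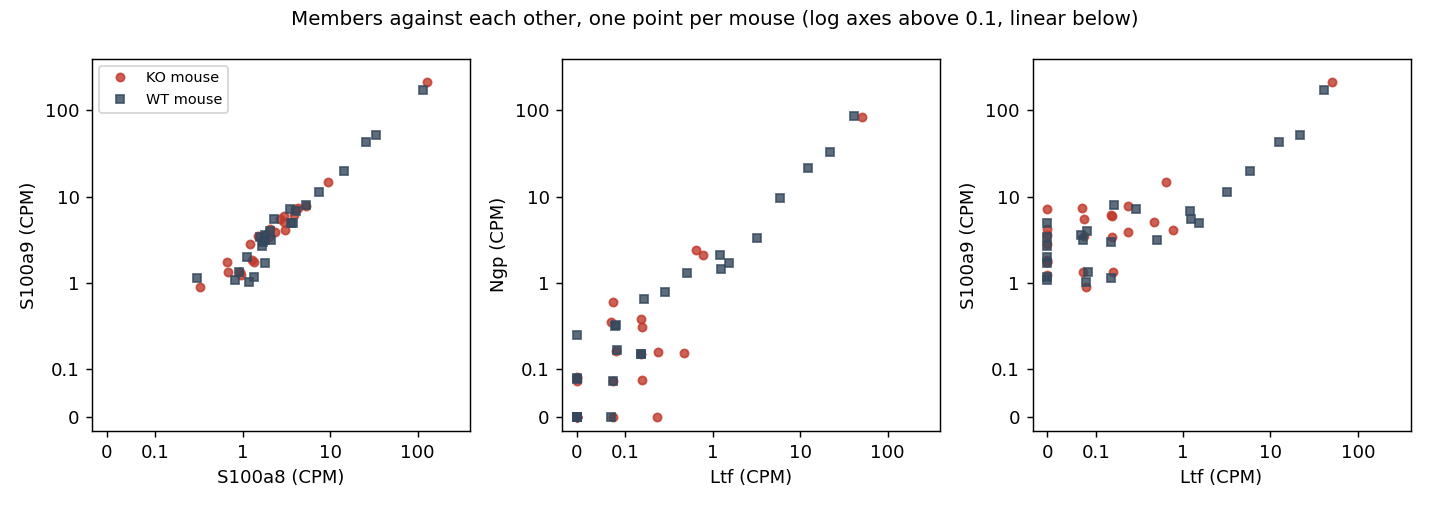
Levels of S100a9 against S100a8, Ngp against Ltf and S100a9 against Ltf (CPM, log axes above 0.1 and linear below), 1 point per mouse, KO as circles and WT as squares. S100a9 follows S100a8 over the whole range, whereas S100a9 spreads over about an order of magnitude among mice with little or no Ltf.

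Genes outside the 6 were ranked by the correlation of their log2 CPM with a score per mouse, the mean of the 6 z-scores. Of 13640 other tested genes, 14 had an r above 0.8 and 27 above 0.7, and the median r was 0.02. The first 9 were Mpo (r = 0.937), Mmp8 (0.930), Cd177 (0.930), Chi3l3 (0.929), Elane (0.919), F13a1 (0.913), Prtn3 (0.897), Ctsg (0.887) and Pglyrp1 (0.871). Mpo, Elane, Prtn3 and Ctsg encode myeloperoxidase, neutrophil elastase, proteinase 3 and cathepsin G, the enzymes of azurophil granules. Mpo was 35 CPM in KO ZT20 replicate 1 and 10.7, 5.66, 5.11 and 3.01 CPM in the 4 high WT mice, against a median of 0.0704 CPM over all mice. Mmp8, neutrophil collagenase, was 15.9 CPM in that KO mouse and 9.77, 4.83, 4.46 and 1.5 CPM in the 4 WT mice. Transcripts of the earliest granules were thus present in the same livers as those of the later ones. Ranks 10 to 15 were 1810033B17Rik (r = 0.852, Mcemp1 in RefSeq), Mmp9 (0.842, gelatinase B), Rab44 (0.834), Ppbp (0.828, a platelet chemokine), Pi16 (0.809) and Ly6c2 (0.797, a monocyte surface protein). Of the 15 genes, 12 were on one of the marker lists used here.

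Of the marker lists, the azurophil granule list correlated most with the score (r = 0.945, rho = 0.602, n = 48), followed by the other specific granule genes (r = 0.888, rho = 0.627) and the megakaryocyte and platelet list (r = 0.831, rho = 0.540). Without the 2 mice farthest from the median score these were 0.904, 0.775 and 0.701. The list of mature neutrophil genes, which includes the receptors Csf3r and Cxcr2, had an r of 0.710, and 0.397 without those 2 mice. The hepatocyte list (r = -0.02) and the list of T, NK and B lymphocytes (r = -0.02) lay near 0, and the erythroid list was low (r = 0.191, rho = 0.118). These values are descriptions, with no p, and 8 of 16 lists had an r above 0.5, against 3 of 16 by Spearman's rho. The limit given for genes near 0 in most livers holds for the azurophil list too.

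**Figure D4:**
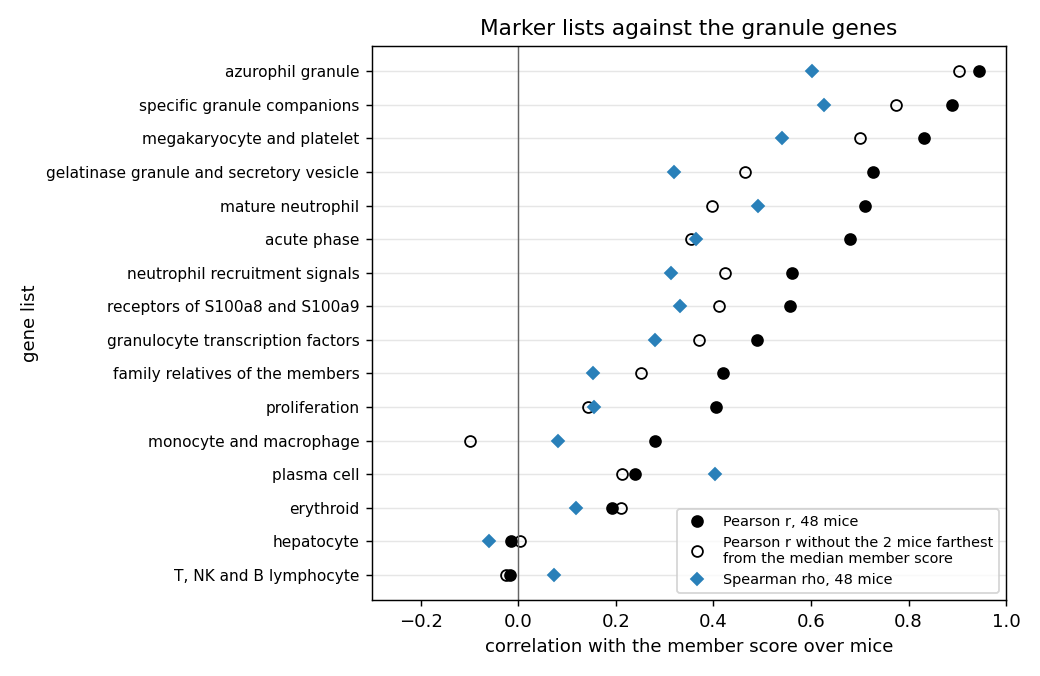
Correlation over 48 mice of each marker list's mean z-score with that of the 6 genes, as Pearson's r (filled circles), Pearson's r without the 2 mice farthest from the median member score (open circles) and Spearman's rho (diamonds). The azurophil, specific granule and megakaryocyte lists lead by all 3 measures, and the hepatocyte and lymphocyte lists lie near 0.

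In the test of time within KO livers, 4 of 4 tested azurophil genes and 4 of 6 tested specific granule companions passed, but 0 of 7 tested genes of mature neutrophils, against 9.73% of all tested genes. Without KO ZT20 replicate 1 none of the tested genes on these 3 lists passed. Summed CPM of the azurophil list was 0 to 84.8 in KO livers, with a median of 0.301, and 0 to 53.2 in WT livers, with a median of 0.396. Summed CPM of the mature neutrophil list was 10.3 to 45.6 in KO livers and 14.6 to 60.8 in WT livers. Csf3r, the receptor of the growth factor G-CSF, and Ly6g were picked for naming after their values were seen. Csf3r was 9.71 CPM in KO ZT20 replicate 1 and 12.8 CPM in WT ZT0 replicate 3, against a median of 2.18 CPM over all mice. Ly6g, a defining surface marker of mouse neutrophils, was low throughout, at 0.316 CPM in that KO mouse and 0.315 CPM in that WT mouse. It was at 0 in 43 of the 48 livers, WT ZT16 replicate 3 and WT ZT20 replicate 4 among them.

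Receptors, recruiting signals and relatives were looked at next to the 6 genes. Bsg, Tlr4 and Ager, receptors reported for S100a8 and S100a9, averaged 397 ± 63.9, 1.72 ± 0.94 and 0.580 ± 0.206 CPM in KO livers (SD, n = 23), against 377 ± 67.0, 1.42 ± 0.88 and 0.818 ± 0.338 CPM in WT livers (SD, n = 25). None of the 3 passed in any of the time tests. Of 8 tested genes of neutrophil recruitment, 1 was lower in KO livers over all times, against 0.777% of tested genes. It was Vcam1, an endothelial adhesion molecule (log2 -0.68, adjusted p = 0.0228 by edgeR), while Cxcl1, a neutrophil chemokine picked after its values were seen, passed for time in both KO and WT livers. Of 6 tested granulocyte transcription factors, 0 passed for time in KO livers and 2 in WT livers, Cebpb and Cebpd, against 9.73% of all tested genes in KO and 8.55% in WT livers. Among relatives of the 6 genes, Trf, which encodes transferrin, averaged 3433 ± 773 CPM in KO livers (SD, n = 23) and 3696 ± 1016 CPM in WT livers (SD, n = 25). S100a10 averaged 151 ± 67.3 CPM in KO livers (SD, n = 23) and 111 ± 44.1 CPM in WT livers (SD, n = 25). S100a10 was the 1 of 8 tested relatives that passed for time in KO livers (adjusted p = 0.0457 by edgeR), a share near the 9.73% of all tested genes, and without KO ZT20 replicate 1 none of the 8 passed.

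Acute phase genes of the hepatocyte were high in some of the same mice, but not in all. Saa1, the gene of a serum amyloid A protein, picked after its values were seen, was 2346 CPM in KO ZT20 replicate 1 and 4376 CPM in KO ZT4 replicate 2, against 8796 CPM in WT ZT0 replicate 3 and 287 CPM in WT ZT12 replicate 4. In WT ZT16 replicate 3, 1 of the 5 high mice, Saa1 was 46.6 CPM, which was also the median of all mice. Lcn2 encodes lipocalin 2, a specific granule protein that hepatocytes also make. It was 1174 CPM in KO ZT20 replicate 1 and 452 CPM in KO ZT4 replicate 2, against 1293 CPM in WT ZT0 replicate 3, 291 CPM in WT ZT12 replicate 4 and 69.9 CPM in WT ZT16 replicate 3. The acute phase list had an r of 0.681 with the score, 0.355 without the 2 farthest mice. Of its 11 tested genes, 4 passed for time in KO livers, against 9.73% of all tested genes, and 3 did so without KO ZT20 replicate 1, against 7.1%. Their part in the levels of the 6 genes was not tested.

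The list of monocyte and macrophage markers as a whole followed the score less closely, with an r of 0.280 over the 48 mice and -0.10 without the 2 farthest. Its genes differed, and F13a1 (r = 0.913) and Ly6c2 (r = 0.797) were among the 15 genes closest to the score. Ccr2, picked after its values were seen, was 4.03 CPM in KO ZT20 replicate 1. It was 8.59, 3.74, 4.89 and 3.80 CPM in the 4 high WT mice, and each of these mice led its group. Ccr2 was also high outside them, at 7.10 CPM in KO ZT16 replicate 3 and 4.27 CPM in KO ZT4 replicate 2. Csf1r, the receptor of macrophage growth factor, was 41 CPM in KO ZT20 replicate 1 and 131 CPM in WT ZT0 replicate 3, against a median of 28.9 CPM. Clec4f, a Kupffer cell marker, was 77.0 CPM in that KO mouse and 306 CPM in that WT mouse. Marco, a scavenger receptor of macrophages picked here after its values were seen, was 0.395 CPM in KO ZT20 replicate 1, against 36.2, 0.0832, 0.144 and 0.358 CPM in the 4 high WT mice, where the median of all mice was 7.61 CPM. Its r with the score was -0.54. Summed CPM of the monocyte and macrophage list was 80.0 to 410 in KO livers (median 201) and 67.3 to 730 in WT livers (median 161).

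**Figure D5:**
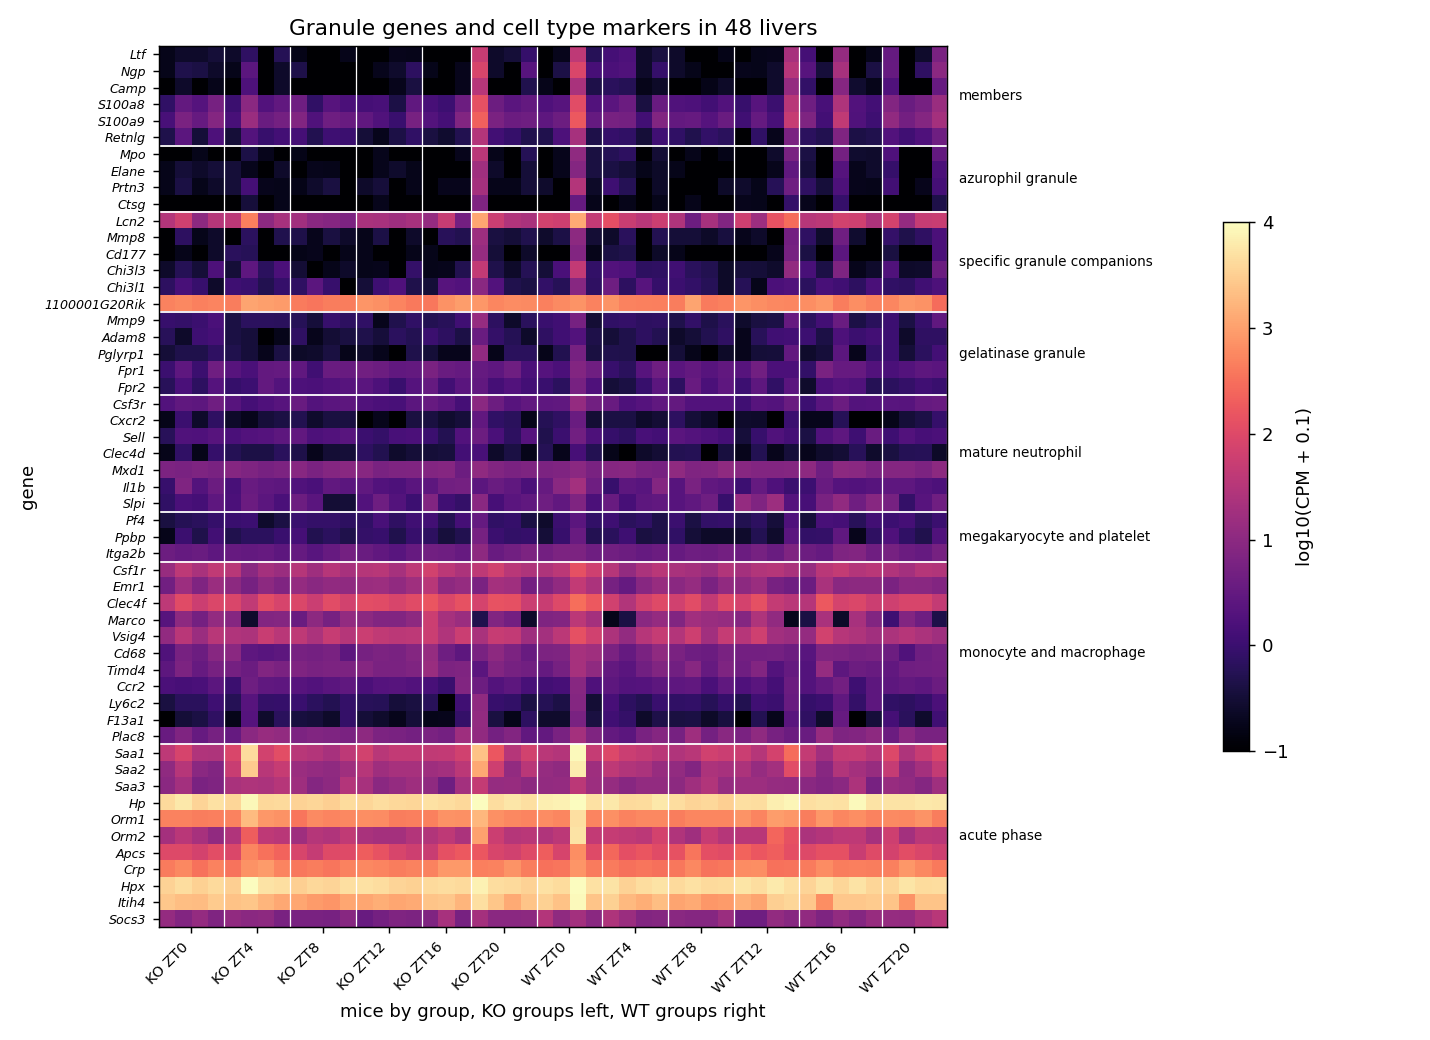
Level of the 6 genes and of tested genes of 7 marker lists (rows, log10 of CPM + 0.1) in 48 livers (columns, KO groups left and WT groups right). Bright columns at KO ZT20 and at WT ZT0, ZT12, ZT16 and ZT20 run through the members and the azurophil genes. Among the specific granule companions they run through Mmp8, Cd177 and Chi3l3. Other companions, such as Lcn2, are not bright in all of these columns. The columns at KO ZT20, WT ZT12, WT ZT16 and WT ZT20 do not run through most macrophage rows. F13a1, Ly6c2 and, by a smaller margin, Ccr2 are exceptions. The mouse at WT ZT0, replicate 3, was high in most macrophage rows too, with 131 CPM of Csf1r and 44.8 CPM of Emr1.

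Hepatocyte markers were abundant in all livers, with a summed CPM of 22596 to 59623 in KO livers and 31350 to 54938 in WT livers. Arntl was read in the livers of both genotypes, with median levels of 33.1 CPM in KO and 37.5 CPM in WT livers at ZT0, and 3.24 CPM in KO and 1.91 CPM in WT livers at ZT8. As the deletion is in adipocytes, liver Arntl does not check the genotype labels. Within groups, no 2 libraries were alike within sampling noise. A slope of log2 level on GC content per library, -0.86 to 0.66 per 10 points, had an r of 0.350 with the score, and KO ZT20 replicate 1 had the highest slope of the 48. The total count per library had an r of -0.36 with the score, over totals that differed by little. The part of either in the levels was not tested.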

How the data were processed

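Poly(A)-selected liver RNA was sequenced from 48 mice, 1 stranded library each, with 13 PCR cycles. Per the submitters' processing notes, CASAVA (version not given), STAR 2.4.1d and build mm9 were used; the counting tool is not given in the sources used here. The values are read counts per gene as the authors deposited them. Alb was left out of library sizes, which then held 12841969 to 13009797 counts. In R 4.3.3, edgeR 4.0.16 filtered genes (filterByExpr), scaled by TMM and fitted 12 group means by quasi-likelihood, with Benjamini-Hochberg adjustment over 13646 genes at 0.05. Alternatives used DESeq2 1.42.0, no filter, Alb kept, age or body weight as covariates, a replicate block and each mouse left out. log2 CPM had a prior count of 2, and correlations used Python 3.11.15. The tests of genotype and of time in KO livers were also run on simulated counts, with the same change in every mouse of a group. That simulation does not cover changes carried by single mice, as seen here.

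The members and marker lists were chosen with earlier results of these data known. Permutation p-values had been planned for the correlations and are not reported, because the members were chosen together. Genes named are the members, the 15 genes closest to their score, up to 3 genes of highest mean per list and Arntl; others are marked in the text. Nothing states how replicates were housed or drawn beyond 1 liver per mouse. Libraries were built over 3 days, and the day of each is not given. PCR reads carry no molecular identifiers, so floors of 3 counts cover counting error only.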

Additional observations from a re-analysis of the deposited data

Results flagged for a closer look

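In 27 of 66 groups of 4 or 5 mice, 1 mouse stood far from the others of its group by Dixon's criterion. A chance rate of about 1 in 20 groups holds for normally distributed values. The criterion was applied here to skewed CPM, many of them from few or no reads, so that rate does not apply to these groups. A group in which only 1 mouse has reads meets the criterion whatever their number. The 27 groups are thus a description, with no chance rate to set them against. The groups are not independent, since the same mice recur in all 6 genes.

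KO ZT20 replicate 1 stood apart for all 6 genes, with 51.1 CPM of Ltf, 84.0 of Ngp, 32.4 of Camp, 129 of S100a8, 212 of S100a9 and 29.7 of Retnlg. KO ZT4 replicate 2 stood apart for Ngp at 2.41 CPM and Camp at 1.53 CPM, and KO ZT8 replicate 1 for Ngp at 0.355 CPM, which is 5 reads against none in the other KO livers of that time.

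WT ZT0 replicate 3 stood apart for all 6 genes, with 40.9 CPM of Ltf, 85.5 of Ngp, 22.5 of Camp, 115 of S100a8, 170 of S100a9 and 21.0 of Retnlg. WT ZT12 replicate 4 did so with 21.6 CPM of Ltf, 33 of Ngp, 12.6 of Camp, 33.9 of S100a8, 51.5 of S100a9 and 5.99 of Retnlg. WT ZT16 replicate 3 did so with 12.4 CPM of Ltf, 21.2 of Ngp, 8.13 of Camp, 25.8 of S100a8, 42.5 of S100a9 and 6.84 of Retnlg. WT ZT20 replicate 4 held the next highest levels of every gene but did not stand apart in its group by this criterion.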

How the results depend on the processing

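Both in every alternative fit and as a plain ratio of mean CPM, the KO minus WT values of all 6 genes stayed negative. That of Ltf was -5.76 by DESeq2 and -0.67 as a plain ratio of mean CPM, and that of Camp was -5.23 and -0.49. With 1 mouse left out, they ranged from -4.22 to -2.30 for Ltf, -3.35 to -1.52 for Ngp, -3.75 to -1.82 for Camp, -1.37 to -0.11 for S100a8, -1.27 to -0.05 for S100a9 and -1.26 to -0.21 for Retnlg. The genes were chosen by this same difference in these mice, so its stable sign is no further evidence for it. Medians did not share the sign for S100a9, at 3.86 CPM in KO and 3.62 CPM in WT livers. They were nearly equal for S100a8 and Retnlg. For time of day in KO livers, 0 to 6 members passed with 1 mouse left out, 0 only without KO ZT20 replicate 1. For time in WT livers, 0 to 4 passed with 1 mouse left out (4 without WT ZT12 replicate 4, 2 without WT ZT16 replicate 3), 2 with age as a covariate and 1 by DESeq2. For the age slope 1 passed by DESeq2. The median correlation of member pairs was 0.642 by Spearman's rho and 0.775 without the 2 farthest mice, and lists above 0.5 numbered 3 of 16 under either. The causes were not tested.

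With same-numbered KO and WT mice of a time as a replicate block, which left out 2 mice, the values were -3.40 for Ltf, -2.70 for Ngp, -2.99 for Camp, -0.59 for S100a8, -0.48 for S100a9 and -0.61 for Retnlg, and 0 members passed for the interaction. The fit with the block and without those 2 mice called 128 genes for KO minus WT over the table, against 191 with all mice and no block, and the part of each choice was not separated. In 13 of 23 such pairs the deviations correlated above 0.1 (range -0.39 to 0.49), and 9 KO mice were closest to the WT mouse of their own number. The 2 mice of a pair had the same age in 22 of 23 pairs, so they shared age as well as a number, but the labels name no shared litter, batch or day. Depth limits Ltf, Ngp and Camp, whose median levels are 1 or 2 reads a library.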
